A study of Mus musculus with 3 samples.

Results

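The genes described here are 10 members of the bone morphogenetic protein (BMP) pathway and its ID targets. They are the ligand genes Bmp4 and Bmp7, the receptor gene Bmpr1a, the signal transducers Smad1 and Smad5, and the inhibitory Smad6. The rest are Id1, Id2, Id3 and Id4. The members were chosen by name, through the gene symbol or the accession of each non-control spot on the array. Earlier results of these data were known when the choice was made. All 10 had probes, 18 in number on 36 spots, out of 27670 genes or named probes on the array and 17709 that were tested. Every one of the 10 was well above background on all 3 arrays, so none was left out by the filter on dim probes.

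The series measured RNA in mouse embryonic stem (ES) cells lacking or carrying Tet1, which encodes an enzyme that oxidises 5-methylcytosine in DNA. There are 2 samples with the genotype Tet1 KO, here called KO 4 and KO 22, and 1 sample with the genotype Tet1 WT. All 3 are of the ES cell line V6.5, which has a mixed 129 and C57BL6 background, and all were kept on irradiated feeder cells with leukaemia inhibitory factor (LIF) and preplated before RNA was taken. Nothing in the labels tells if KO 4 and KO 22 are clones or cultures of their own, or how the allele was made, and the design text speaks of mice. A p-value here therefore covers the scatter of these samples alone, and that scatter may be technical.

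BMP ligands bind a complex of type I and type II receptors at the cell surface, and the type I receptor then phosphorylates SMAD1, SMAD5 and SMAD9. These join SMAD4 and enter the nucleus, where the genes of the ID proteins are among their best known targets. ID proteins have a helix-loop-helix domain but no DNA-binding part, so they hold E proteins and other partners off DNA. In mouse ES cells grown with LIF, BMP4 and the ID proteins are known for restraining neural differentiation, and the inhibitory SMAD6 and SMAD7 close a negative feedback loop.

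Promoter sequences are shown for 3 of the members. Smad6 stands for the feedback arm, and Id2 and Id3 are relatives that lay on opposite sides of wild type. The sequences are RefSeq windows on GRCm38.p6, each with 250 bases before and 50 bases after a transcript start, written 5′ to 3′ on the strand of the gene. Windows were found for 8 of the 10 members. The windows lie at chr9:64022010-64022309 on the minus strand for Smad6, chr12:25096043-25096342 on the minus strand for Id2 and chr4:136143572-136143871 on the plus strand for Id3. Capitals mark GTCTAGAC, a palindrome that SMAD proteins bind, and GGCGCC, a GC-rich palindrome known from BMP-responsive elements.
Smad6: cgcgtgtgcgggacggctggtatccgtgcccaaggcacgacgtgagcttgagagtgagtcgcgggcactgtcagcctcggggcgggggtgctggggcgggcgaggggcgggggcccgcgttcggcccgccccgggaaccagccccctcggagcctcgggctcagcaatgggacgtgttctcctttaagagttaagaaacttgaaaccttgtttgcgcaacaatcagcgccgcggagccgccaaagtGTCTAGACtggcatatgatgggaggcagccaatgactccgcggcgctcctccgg
Id2: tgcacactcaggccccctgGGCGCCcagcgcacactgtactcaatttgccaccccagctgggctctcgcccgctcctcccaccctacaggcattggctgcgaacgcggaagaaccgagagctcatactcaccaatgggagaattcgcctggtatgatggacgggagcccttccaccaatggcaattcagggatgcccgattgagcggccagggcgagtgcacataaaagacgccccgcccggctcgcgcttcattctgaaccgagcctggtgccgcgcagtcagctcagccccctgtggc
Id3: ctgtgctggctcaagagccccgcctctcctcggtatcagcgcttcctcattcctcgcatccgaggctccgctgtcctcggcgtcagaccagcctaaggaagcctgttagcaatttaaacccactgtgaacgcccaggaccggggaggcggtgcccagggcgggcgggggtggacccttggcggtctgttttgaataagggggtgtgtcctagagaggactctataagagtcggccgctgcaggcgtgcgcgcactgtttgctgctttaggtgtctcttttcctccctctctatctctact

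The palindrome GTCTAGAC was in the Smad6 window, 1 time, with its first base at -4 relative to the start. It was in 0.213% of all 32851 promoter windows, and in no other window of these members. GGCGCC was in 11.9% of all windows. Among the members it was in those of Id2 (first base at -231), Id4 (-148) and Bmpr1a (-198) and in 2 overlapping windows of the 3 of Smad5, but not in those of Id3, Bmp4, Smad1 or Smad6. Both strands were searched, and both motifs read the same on either, and no copies of 1 overlapped the other. The E-box CANNTG was searched too. It was in 72.3% of all windows, with 3 copies in Bmp4, 1 in Smad6, 1 in Id2, 1 in each of the overlapping Smad5 windows, and 0 in the third Smad5 window and those of Id3, Id4, Bmpr1a and Smad1. CpG, the dinucleotide that carries the mark Tet1 acts on, was counted too: 48 in Bmpr1a, 39 in Id4, 31 in Smad6, 31 in Smad1, 31, 36 and 31 in the Smad5 windows, 21 in Id2, 19 in Id3 and 12 in Bmp4, where the median of all windows was 7. Of all windows, 60.4% held fewer CpG than that of Bmp4, 71.9% fewer than Id3 and 75.2% fewer than Id2. For the windows of the other members this share was 89.4% to 98.8%. A match is a description of letters and not a site.

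Values come in 2 forms. Intensity is the processed brightness of a spot in the scanner file, which was not scaled between arrays. Level is the log2 intensity minus the 75th percentile of that array, and a difference is the knockout level minus the wild type level on this log2 scale. Errors are standard errors from limma with 2 knockout arrays against 1 wild type array. The 75th percentiles (KO 4 717.7, KO 22 644.9, wild type 623.7) set the scaling, and the share of spots well above background ranged from 62.2% to 62.8%. All 3 arrays lay on 1 slide. The number of arrays limits the precision, since the wild type array has no replicate and 0.09 is the spread toward which limma draws every gene. An exact permutation of 3 arrays cannot go below a 2-sided p of 0.333, so no such test is given for single genes. The probe for Tet1 itself read 214 on KO 4, 195 on KO 22 and 721 on wild type (difference -1.94, limma adjusted p = 0.0529).

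Among the 10 members, most of the ligand, receptor and Smad genes gave a higher level on both knockout arrays, while the ID genes split. Bmp4, Bmp7, Bmpr1a, Smad1, Smad6, Id2 and Id4 lay above wild type on both knockout arrays, Id1 and Id3 lay below on both, and Smad5 lay on either side of wild type. Thus 7 of 10 members were above on both arrays, where 38.0% of all genes tested were, and 2 of 10 were below, where 45.5% were. The median difference of the members was 0.55, against -0.03 for all genes tested. It was 0.56 on KO 4 and 0.54 on KO 22, arrays that share the wild type array. These counts and medians describe members chosen with earlier results of these data known, so they are no test of the pathway.

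In the test none of these differences passed. The limma fit over all genes called 0 of 10 members at an adjusted p below 0.05, and it called 0.356% of all genes (0.0339% higher and 0.322% lower). The lowest adjusted p among members was 0.0971. By probe, 12 of 18 lay above wild type on both arrays and 4 below, where 39.9% and 43.6% of all probes tested did. At an unadjusted p below 0.05 there were 6 members higher (Bmp4, Bmp7, Bmpr1a, Smad1, Smad6 and Id2) and 0 lower, where 13.2% of all genes were higher and 15.0% lower. The outcome turned on how the spread was modelled. With an intensity trend in limma's eBayes step the same 6 members passed, the least of them at an adjusted p of 0.021, where 8.31% of all genes passed as higher and 10.7% as lower.

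**Figure D1:**
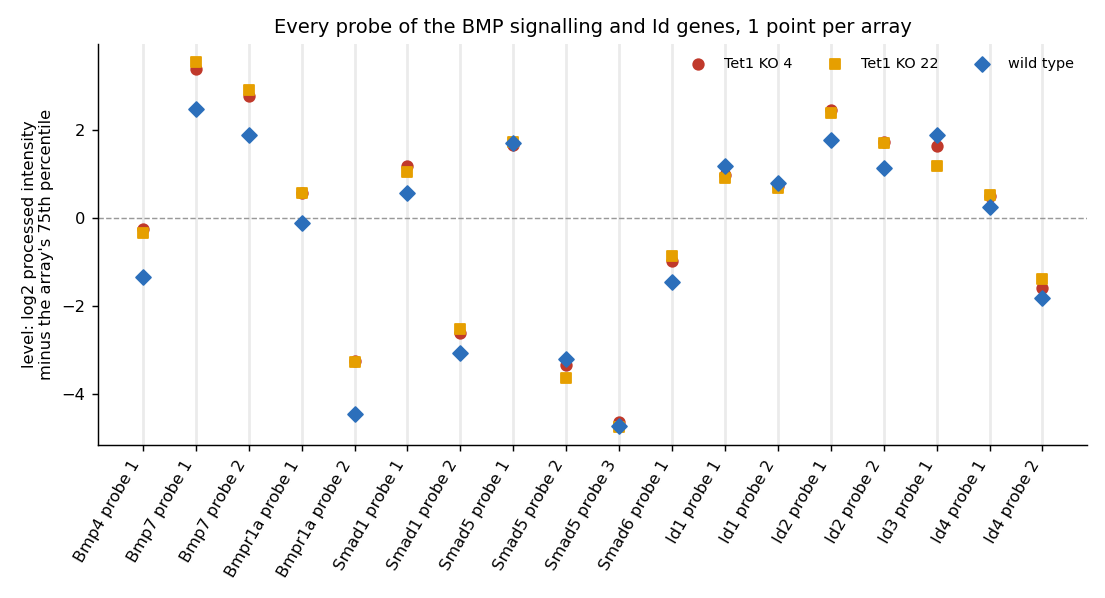
Level (log2 processed intensity minus the 75th percentile of the array) of every probe of the 10 genes, with 1 point for each array and no error bar, since each array is 1 sample. The wild type points lie below both knockout points for 12 of the 18 probes, and above both for 4.

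By the brightest probe of each gene, the ligands stood farthest from wild type among the members, but not with normexp background correction, where Bmp4 lay below Id2, Smad1 and Bmpr1a. BMP4 is the ligand that ES cell cultures are classically given in place of serum. The Bmp4 probe (NM_007554, chromosome 14, 41704207 to 41704266 on build mm7) is printed 10 times per array, which shows the error within an array. Its intensity ran from 559 to 667 on KO 4 (median 598), from 478 to 531 on KO 22 (median 511) and from 227 to 276 on wild type (median 244). No spot of either knockout array came near the highest wild type spot, and the SD between spots of 1 array was 0.08, 0.05 and 0.08 on the log2 scale. Spots of 1 array share 1 RNA sample and are not replicates of the genotype. For this probe the SD between the knockout arrays was 0.06, and the spread of the wild type was not measured. Over all genes tested KO 4 minus KO 22 had an SD of 0.33, which is not a measure of Bmp4 alone. The Bmp4 difference was 1.10 on KO 4 and 1.01 on KO 22, with a mean of 1.06 ± 0.10 (2.08-fold, limma adjusted p = 0.0971, and 0.0041 with the intensity trend). With normexp background correction it was 0.41. Bmp4 was the only member at least 2-fold above wild type on both arrays, where 1.45% of all genes were.

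Bmp7, a ligand of another BMP subgroup, has a pair of probes on chromosome 2. The brighter one (172614090 to 172614149 on mm7) read 7561 on KO 4, 7542 on KO 22 and 3483 on wild type. Its difference was 0.92 on KO 4 and 1.07 on KO 22, with a mean of 0.99 ± 0.12 (1.99-fold, limma adjusted p = 0.1, and 0.00387 with the trend). The other Bmp7 probe (172614169 to 172614228) is printed 10 times, and its median spot read 4979 (KO 4), 4917 (KO 22) and 2366 (wild type). Its highest wild type spot, at 2419.8, lay far below the lowest knockout spot, at 4692. That probe gave 0.95 ± 0.11 (1.93-fold), so both probes of Bmp7 put the knockout samples at about the same distance from wild type.

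**Figure D2:**
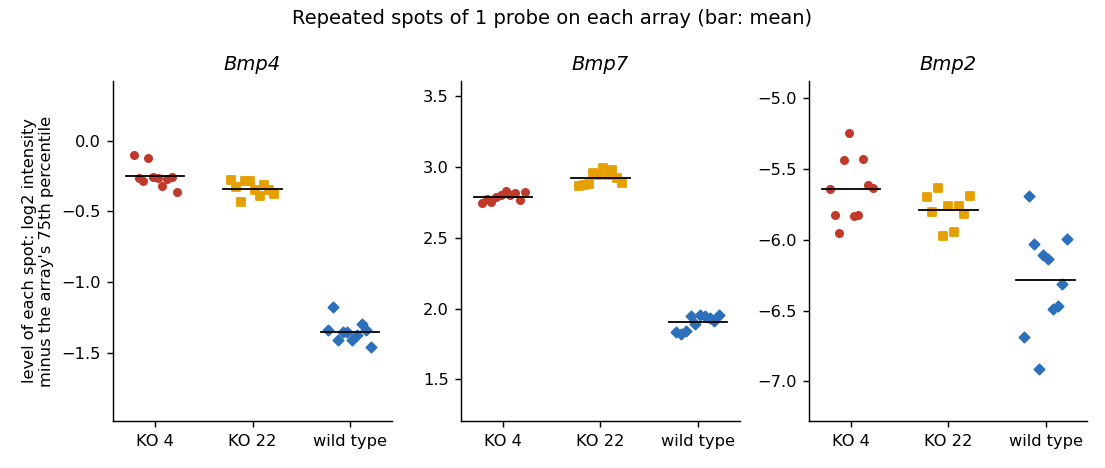
Level of each repeated spot of 1 probe for Bmp4, Bmp7 and Bmp2 on the 3 arrays, with the mean of the spots as a bar. The y axes cover the same span of log2 units at different heights. The spots of Bmp4 and Bmp7 do not overlap between the knockout arrays and wild type, while those of the dim ligand gene Bmp2 do. Spots of 1 array share 1 RNA sample, so such a gap is no test of the genotype. How many other repeated probes part in this way was not counted.

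The receptor gene Bmpr1a encodes the type I receptor ALK3. Its brighter probe (chromosome 14, 31844499 to 31844558 on mm7) read 1058 on KO 4, 959 on KO 22 and 573 on wild type. The knockout arrays gave nearly the same difference, 0.68 and 0.69, with a mean of 0.69 ± 0.09 (1.61-fold, limma adjusted p = 0.101, and 0.0075 with the trend). The dimmer Bmpr1a probe (31847850 to 31847909) read 74.8, 66.2 and 28.2 and gave 1.19 ± 0.09 (2.28-fold, adjusted p = 0.0772 in the fit over all probes). Both probes lay on the same side, but the size differed by more than the errors of either.

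Among the signal transducers, Smad1 and Smad5 parted. SMAD1 and SMAD5 are the receptor-regulated SMADs of the BMP branch. The brighter Smad1 probe (chromosome 8, 77879742 to 77879798) read 1621 on KO 4, 1332 on KO 22 and 922 on wild type. Its difference was 0.61 on KO 4 and 0.48 on KO 22, with a mean of 0.55 ± 0.11 (1.46-fold, limma adjusted p = 0.121, and 0.0152 with the trend), and the dimmer Smad1 probe gave 0.51 ± 0.10. For Smad5 the brightest of 3 probes (chromosome 13, 55833898 to 55833957) read 2262, 2161 and 2029 on KO 4, KO 22 and wild type. Once scaled, these stood at -0.05 on KO 4 and 0.04 on KO 22, with a mean of 0.00 ± 0.10 (adjusted p = 0.992). The other Smad5 probes gave -0.28 ± 0.18 and 0.04 ± 0.10, so their signs disagreed, and neither differed from wild type beyond the threshold. With normexp background correction, which called 78.2% of all genes, Smad5 stood at 0.34 and passed (limma adjusted p = 0.00787). Taken within each array, which removes the scaling, the difference of Smad1 exceeded that of Smad5 by 0.66 on KO 4 and 0.44 on KO 22.

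SMAD6 is an inhibitory SMAD that blocks the BMP branch at the receptor and is itself induced by BMP. The single Smad6 probe (chromosome 9, 63982002 to 63982061 on mm7) read 367 on KO 4, 353 on KO 22 and 225 on wild type. Its difference was 0.50 on KO 4 and 0.60 on KO 22, with a mean of 0.55 ± 0.10 (1.47-fold, limma adjusted p = 0.114, and 0.021 with the trend). The direction turned to -0.21 (adjusted p = 0.0855) with normexp background correction, which shifted the median of all genes to -0.20. Without the 8 spots that were dimmer than their own background it was 0.43 and passed (adjusted p = 0.00971).

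**Figure D3:**
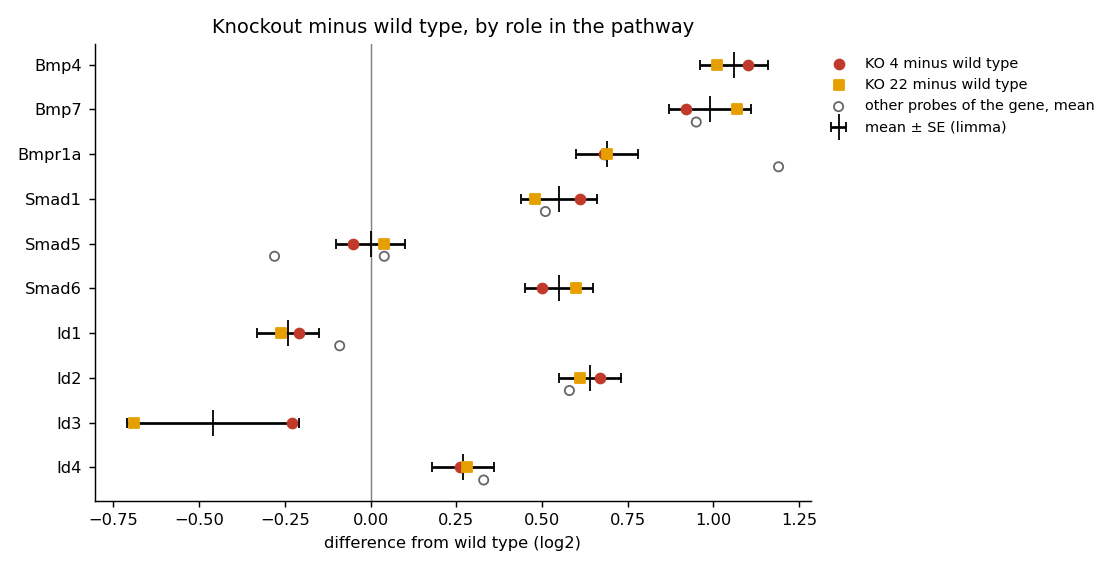
Difference from wild type on the log2 scale for the brightest probe of each gene, with KO 4 and KO 22 as points and the mean with its limma standard error in black. Open circles are the means of the other probes of the gene. Among the brightest probes Bmp4 lies farthest to the right, at 1.06, and Id3 farthest to the left, at -0.46; the second Bmpr1a probe lies at 1.19. Id3 is also the gene whose knockout arrays lie farthest apart.

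The ID genes did not lie on 1 side of wild type. Id2 was the ID gene farthest above wild type. Its brighter probe (chromosome 12, 22930541 to 22930600 on mm7) read 3918 on KO 4, 3383 on KO 22 and 2140.3 on wild type. The difference was 0.67 on KO 4 and 0.61 on KO 22, with a mean of 0.64 ± 0.09 (1.56-fold, limma adjusted p = 0.102, and 0.00739 with the trend). The other Id2 probe, whose mm7 coordinates span 348 bases rather than 60, gave 0.58 ± 0.10.

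Id4 leaned the same way by less. Its brighter probe (chromosome 13, 47746118 to 47746177) read 1019.8, 926 and 739 on KO 4, KO 22 and wild type, and both knockout arrays lay above wild type. The mean difference was 0.27 ± 0.09 (1.21-fold, limma adjusted p = 0.184, and 0.0724 with the trend). The dimmer Id4 probe read 237, 248 and 176 and gave 0.33 ± 0.14.

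Id1, often used as the direct readout of BMP signalling in ES cells, was not higher in the knockout samples. Its brighter probe (chromosome 2, 152478157 to 152478216 on mm7) read 1413 on KO 4, 1221 on KO 22 and 1417 on wild type. Scaled to each array these gave -0.21 on KO 4 and -0.26 on KO 22, with a mean of -0.24 ± 0.09 (limma adjusted p = 0.225), and the sign turned to 0.06 with normexp background correction. The second Id1 probe, which overlaps most of the first (152478167 to 152478226), gave -0.09 ± 0.10. On neither probe did the knockout arrays differ from wild type beyond the threshold.

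Id3, the other common BMP readout, was the member with the widest gap between the knockout samples. Its single probe (chromosome 4, 135522597 to 135522771 on mm7) read 2257 on KO 4, 1471 on KO 22 and 2297 on wild type. KO 22 was the low array, and KO 4 lay close to wild type. The differences were -0.23 and -0.69, with a mean of -0.46 ± 0.25 (limma adjusted p = 0.319), so the mean leans on KO 22 and the value without it was -0.23. With normexp background correction it was -0.05 (adjusted p = 0.771).

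Comparison within each array sets the ID genes apart whatever the scaling. The difference of Id2 exceeded that of Id1 by 0.88 on KO 4 and 0.88 on KO 22, and that of Id3 by 0.90 and 1.30. The difference of Id4 exceeded that of Id1 by 0.47 and 0.54, and that of Id3 by 0.49 and 0.97. With normexp background correction Id2 stood at 1.0, Id4 at 0.23, Id1 at 0.06 and Id3 at -0.05. No test was run on these contrasts.

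**Figure D4:**
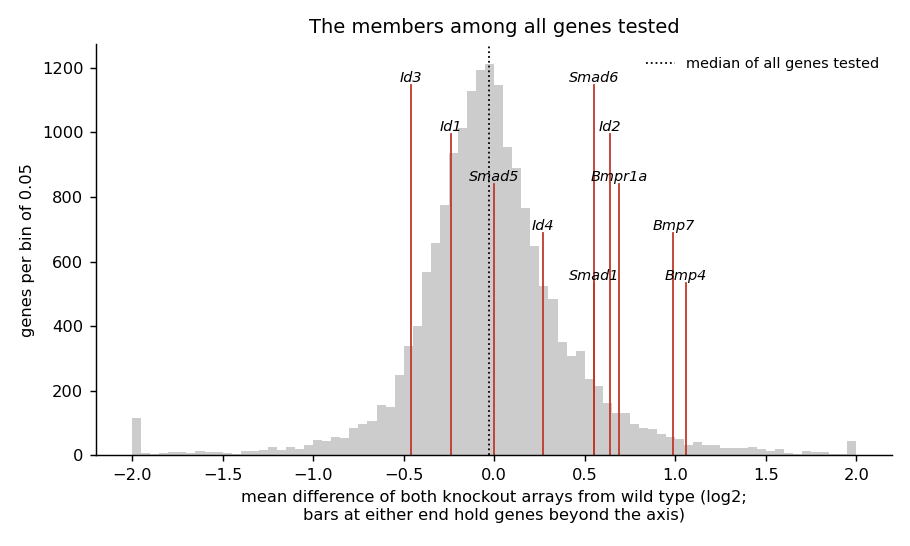
Histogram of the mean difference (knockout minus wild type, log2) of all 17709 genes tested, with each of the 10 genes as a red line whose height only separates the names. Bmp4 (1.06) and Bmp7 (0.99) lie in the right tail, and Smad5 (0.00) lies beside the median of all genes (-0.03).

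The other genes of the pathway were read from 6 lists with 97 genes on the array besides the members, of which 78 were tested and 19 were not well above background on any array. Over all genes limma called 0 of the 78, while an unadjusted p below 0.05 was met by 17 that were higher and 11 that were lower, where 13.2% and 15.0% of all genes did. With the intensity trend 16 passed as higher and 8 as lower, where 8.31% and 10.7% of all genes did, so the lower counts lay near those of all genes. On both knockout arrays 43 of the 78 lay above wild type and 23 below, against 38.0% and 45.5% of all genes. Their median difference was 0.13, closer to that of all genes (-0.03) than the median of the members was. Of the 78, 3 were at least 2-fold above on both arrays (Bmp1, Smad7 and Hand1), where 1.45% of all genes were, and 1 at least 2-fold below (Bmper), where 1.56% of all genes were.

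Of 8 other ligand genes tested, 5 were above on both arrays and 2 below, with a median of 0.17 and 0 called. Bmp5, Bmp10, Bmp15, Gdf2, Gdf6 and Gdf7 were not well above background anywhere. Bmp2, the closest relative of Bmp4, had a median spot intensity of 14.4 on KO 4, 11.9 on KO 22 and 8.37 on wild type. Only 1 of its 10 wild type spots was well above background, so its fold is uncertain. The measured difference was 0.57 (limma adjusted p = 0.121, and 0.324 with the trend). The knockout mean lay 1.22-fold above the lowest level of any probe well above background on the wild type array. That level is no limit for the Bmp2 probe itself, so no lower bound is given. With normexp background correction the difference turned to -1.98, or 0.02 without the 8 spots.

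Receptor genes other than Bmpr1a lay on both sides of wild type. Of 9 tested, 4 were above on both arrays and 4 below, with a median of -0.06 and 0 called. Acvr1, which encodes the type I receptor ALK2, read 656, 604 and 359 on KO 4, KO 22 and wild type and stood at 0.68 ± 0.09 (1.61-fold, limma adjusted p = 0.101, and 0.00902 with the trend). Bmpr2, the type II partner, stood at 0.17 ± 0.14 (adjusted p = 0.463). Bmpr1b, the relative of Bmpr1a, was not well above background on any array.

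Of 19 intracellular SMADs and regulators tested, 10 were above on both arrays and 8 below, with a median of 0.12 and 0 called. Smad7, the other inhibitory SMAD, read 318 on KO 4, 315 on KO 22 and 134 on wild type. Both knockout arrays lay more than 2-fold above wild type, with a mean of 1.11 ± 0.11 (2.16-fold, limma adjusted p = 0.0971, and 0.00565 with the trend). With normexp background correction the Smad7 difference was 0.03 (adjusted p = 0.811), or 0.83 without the 8 spots. Smad4, the shared partner SMAD, stood at 0.23 ± 0.09 (adjusted p = 0.217), and Smad9 was not well above background on any array.

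Of 14 extracellular regulators tested, 10 were above on both arrays and 2 below, with a median of 0.24 and 0 called. Bmp1 encodes a metalloprotease that cleaves procollagen and the BMP antagonist chordin, and is no BMP ligand. It read 924 on KO 4, 592 on KO 22 and 248 on wild type, a mean difference of 1.45 ± 0.26 (2.74-fold, limma adjusted p = 0.112), but its second probe gave 0.16. Bmper, a secreted BMP-binding protein gene, lay on the other side. It read 21.9 on KO 4, 9.88 on KO 22, where it was not well above background, and 75.1 on wild type, a measured difference of -2.48 ± 0.50 (adjusted p = 0.122) that rests on 1 knockout array above background. It was -0.87 with normexp without the 8 spots. In the fit over all probes its second probe, of lower mean level than the first, was called (-2.53, limma adjusted p = 0.0305). That fit called 0.332% of all probes. The antagonist gene Nog stood at 0.08 ± 0.12 (adjusted p = 0.712, and -1.75 with normexp background correction), and the decoy receptor gene Bambi at 0.30 ± 0.09 (adjusted p = 0.172).

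Of 17 target genes outside the ID family, 10 were above on both arrays and 4 below, with a median of 0.30 and 0 called. With the intensity trend 7 passed as higher and 1 as lower, where 8.31% and 10.7% of all genes did. Hand1, a helix-loop-helix gene of mesoderm and trophoblast, read 66.9, 49.7 and 22.3 on KO 4, KO 22 and wild type, with a mean of 1.25 ± 0.16 (2.37-fold, limma adjusted p = 0.101, and -1.38 with normexp background correction, or 0.44 without the 8 spots). Tgfb1i1 at 1.09 ± 0.15, Gata2 at 1.04 ± 0.13 and Cdx2 at 0.97 ± 0.10 are outside the rule for named genes and were picked after their values were seen. The 4 target genes below on both arrays, also outside that rule, were Tbx3 (-0.50), Prdm1 (-0.36), Tfap2a (-0.34) and Hey1 (-0.07). Tbx3 was the 1 that passed as lower with the trend. Of 11 partners and opponents of ID proteins, 4 were above on both arrays and 3 below, with a median of 0.02 and 0 called.

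**Figure D5:**
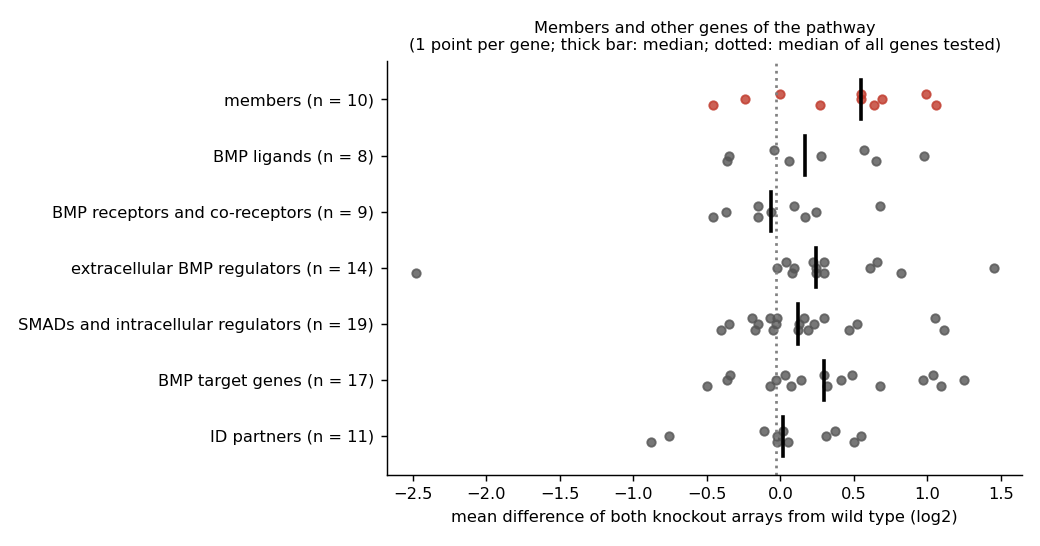
Mean difference (knockout minus wild type, log2) of the 10 members and of the tested genes of 6 other pathway lists, with 1 point per gene and the median as a thick bar. The members have a median of 0.55, and the other lists lie between -0.06 for receptors and 0.30 for target genes.

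Markers of ES cells and of other cell types were read from the same arrays. Limma called 0 markers of ES cells, fibroblasts, trophoblast, mesoderm or neuroectoderm, where it called 0.356% of all genes. For comparison, 38.0% of all genes tested were above wild type on both knockout arrays and 45.5% below. In RNA of mixed cells, fewer cells of a type and less RNA per cell cannot be told apart. Summed levels are given as linear multiples of the 75th percentile of each array. Of 11 ES cell markers 4 were above on both arrays and 6 below, and they summed to 820 on KO 4, 941 on KO 22 and 878 on wild type, of which Dppa5a alone made 468, 593 and 539. Of 21 fibroblast markers, included because of the feeder cells, 8 were above on both arrays and 2 below. Their sums were 80.2, 63.7 and 54.7, of which Tagln alone made 27.3, 18.6 and 8.16, and Fap was at background. Their median difference differed between the knockout samples (KO 4 0.69, KO 22 -0.08). On KO 22 these markers went both ways, with Tagln at 1.19 and Col5a1 at 0.59 but Col6a1 at -0.36, Lum at -0.73 and Pdgfra at -1.09. The medians of the BMP members were 0.56 on KO 4 and 0.54 on KO 22, and the part of feeder cells in them was not tested. Of 13 trophoblast markers, which share Cdx2, Gata3, Hand1 and Tfap2a with the target list, 11 were above on both arrays and 2 below. Their sums were 241, 212 and 134, of which Krt18 alone made 131, 119 and 65.3, and Elf5 was at background. Their median difference was 0.75 on KO 4 and 0.84 on KO 22. Of 15 primitive endoderm markers 12 were below on both arrays and 2 above, with sums of 9.49, 9.09 and 13.8, Afp at background, and medians of -0.82 on KO 4 and -0.86 on KO 22. Limma called 2 of them lower, where 0.322% of all genes were. Of 9 neuroectoderm markers 6 were below on both arrays and 1 above. Their sums were 8.14, 7.68 and 12.7, of which Nes alone made 5.86, 5.36 and 8.95, and Pax3 was at background. The 8 mesoderm markers were split, 4 above and 4 below, with sums of 1.12, 1.02 and 1.16 and Mixl1, Kdr and Foxf1 at background. The part of these cell types in the values of the BMP pathway genes was not tested.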

How the data were processed

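RNA of 3 samples was labelled with Cy3 and hybridised to 1 Agilent array each. Per the file headers, the deposited processed intensity of each spot was made with Agilent Feature Extraction 10.1.1.1, after subtraction of background and spatial detrending, with surrogate values for dim spots and no scaling between arrays. The deposited series matrix holds log2 values whose columns share 1 median (5.52), and whether background was subtracted there is unknown. Limma is named, with no version, per the submitters' processing notes.

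Here log2 processed intensity minus the 75th percentile of non-control spots was used. Outlier spots were left out, and spots of a probe were averaged. Names came from accession, symbol or synonym in a RefSeq table (GRCm38.p6), which matched 79.5% of 41174 probes; probe positions are those of the files, on mm7, and their place within exons was not analysed here. A probe was tested if at least 50% of its spots were well above background on 1 array or more; the probe of highest mean level stood for its gene. The tests used lmFit and eBayes of limma 3.58.1 (R 4.3.3), knockout against wild type, with Benjamini-Hochberg adjustment over 17709 genes, a threshold of 0.05, and 1 residual degree of freedom per gene, 3.03 after moderation. The steps were tested on simulated arrays. Alternatives were quantile normalization, normexp (offset 50), other filters, other probe rules, an intensity trend, the series matrix and leaving out a knockout array.

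The text names the members, their closest relatives, and pathway genes that differed from wild type by 2-fold or more in 1 direction on KO 4 and KO 22 alike. Some target genes outside this rule were named after their values were seen. The marker lists were those of ES cells, fibroblasts, trophoblast, primitive endoderm, mesoderm and neuroectoderm. The members and lists were chosen with earlier results of these data known.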

Additional observations from a re-analysis of the deposited data

How the results depend on the processing

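No paired analysis was possible because the knockout and wild type samples share no replicate number. Of the 10 members, limma called 0 as reported, and 0 with quantile normalization, without a filter, with probes averaged or in the fit over all probes. It called 4 (Bmp4, Bmp7, Bmpr1a and Id2) where probes had to be well above background on all 3 arrays (5.55% of all genes called) and in the series matrix values (5.48%). It called 6 with the intensity trend (19.0%) and 6 with normexp (78.2%), where Smad5 passed and Smad6 did not. With normexp without the 8 spots dimmer than their background it called 7, with Id3 lower (18.3%). Bmp4 ranged from 0.41 to 1.10 over all settings, Bmp7 from 0.92 to 1.45, Bmpr1a from 0.52 to 0.94, Id2 from 0.61 to 1.00 and Smad1 from 0.48 to 0.69. With normexp, differences turned to -0.21 for Smad6, 0.06 for Id1, -1.98 for Bmp2 (0.02 without the 8 spots), -1.75 for Nog (-0.06) and -1.38 for Hand1 (0.44), and Smad7 was 0.03 (0.83) and Id3 -0.05 (-0.42); the 8 spots shifted the median of all genes to -0.20.

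As reported limma called 6 genes higher and 57 lower. The counts were 1472 and 1900 with the intensity trend, 500 and 411 with the filter on all 3 arrays, 476 and 494 in the series matrix, 5214 and 8632 with normexp and 1369 and 1880 without its 8 spots. In the fit over all probes 14 were higher. Without a filter limma called 0 and 0, with 5968 genes at an unadjusted p below 0.05. Of the other pathway genes 0 were called as reported, 24 with the trend, 10 with the filter on all 3 arrays, 12 in the series matrix, 58 with normexp, 24 without its 8 spots and 1 (Bmper, by its second probe) in the fit over all probes. At least 2-fold above and below on both knockout arrays were 256 and 277 genes as reported, 152 and 131 with the filter on all 3 arrays, 385 and 521 without a filter, 109 and 180 in the series matrix, 104 and 5654 with normexp, and 57 and 52 without its 8 spots. Over all probes 393 were above. On 1 knockout array alone the count above was 423 to 486. The spread of the wild type was not measured. The causes of these changes were not tested.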
